A study of Mus musculus with 28 samples.

Results

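The genes described here encode the nuclear subunits of the oxidative phosphorylation machinery, followed through postnatal development of 2 kinds of mouse retinal amacrine cell. Members were all transcript clusters with a single gene symbol of the families Nduf (complex I), Sdh (complex II), Uqcr and Cyc1 (complex III), Cox4 to Cox8 (complex IV) and Atp5 (complex V). Of 13617 genes measured, 53 were members, with 25 in complex I, 4 in complex II, 6 in complex III, 10 in complex IV and 8 in complex V. Each member was measured by 1 cluster. A further 6 clusters of these families carried several symbols and were left out, namely those of Ndufa10, Ndufa11, Cox6c, Atp5c1, Atp5j and Atp5o.

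Oxidative phosphorylation takes place in the inner mitochondrial membrane. Complexes I and II take electrons from NADH and succinate, complex III passes them through cytochrome c to complex IV, which reduces oxygen, and the proton gradient built by complexes I, III and IV drives ATP synthesis by complex V. The retina is among the tissues with the highest energy use, and its neurons spend much of their ATP on ion pumping and synaptic transmission. Complex II is built wholly from nuclear genes, while the core of the other complexes includes subunits encoded by mitochondrial DNA, which were not analysed here.

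Starburst amacrine cells, which release acetylcholine, came from mice that joined the reporter Rosa26-LSL-RFP with the driver 129S6-Chat_tm1(cre)Lowl/J, in which Cre made under the Chat locus switches on RFP, with 3 arrays at postnatal day 18 (P18) and 3 at P3. Arc amacrine cells came from the transgenic line Tg(Arc-EGFP)194Gsat/Mmcd, in which EGFP marks cells using Arc regulatory sequence, with 1 array for each day of P1 to P20, a second array at P6 and 1 array at P43. The labels give both lines a background of C57BL/6J mixed with an FVB/N-Swiss Webster hybrid, although the breeding notes put lines other than the Arc line in C57BL/6J. The Arc founders carried a recessive allele for photoreceptor degeneration, and the F2 of a backcross to C57BL/6J was used. For each sample 200 fluorescent cells were sorted from dissociated retina. The series describes triplicates of 1 retina each, but the table holds 1 Arc column a day, so neighbouring days stand in for Arc replicates and p-values measure the spread between these arrays.

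Levels are log2 expression on the scale deposited by the authors, and differences are log2 differences. The batch label names A and B on the Arc side and B alone on the starburst side. The cell types therefore cannot be told apart from their mouse line, reporter colour or batch label. Array medians over all genes lay between 3.58 and 3.67 in starburst arrays and between 3.39 and 3.55 in Arc arrays. The 95th percentile of 704 olfactory receptor genes, taken as a background level, was 3.92 in starburst and 3.47 in Arc cells. A list of 6 starburst markers averaged 6.33 to 6.97 per starburst array, while all 6 lay below background in Arc cells. In RNA from sorted cells, fewer cells of a type and less RNA per cell cannot be told apart. Markers of rods, the photoreceptors of dim light, were higher with age in both sorts, with 3 of 14 called in starburst and 10 of 14 in Arc cells. The rod list of 14 genes averaged 4.05 to 4.55 per array at P14 to P20, against 3.54 to 3.92 at P1 to P6 in Arc cells, with 5 and 9 of the 14 below background in the later and earlier days. In starburst cells it averaged 4.30 to 4.47 at P18, against 3.72 to 3.83 at P3, with 7 and 10 of the 14 below background. Rods are rich in mitochondria, and the part of rod RNA in the values below was not tested.

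In Arc amacrine cells many of the subunits rose with age and none was called lower. In a linear fit over the 21 arrays of P1 to P20 (limma, Benjamini-Hochberg adjusted p under 0.05 over all genes), 25 of 53 members rose between P1 and P20 and 0 fell. Over all genes 14.7% were called higher and 23% lower, beside 47.2% of members called higher. The median fitted change was 0.34 over the members and -0.13 over all genes. The fitted change was positive for 44 of the 53 members, and 28 members did not pass the test in either direction. The scaling between arrays moves the all-gene median of this fit, to -0.02 with arrays centred on their medians or with cyclic loess. The counts of all genes called higher and lower, 2005 and 3132 as deposited, became 2423 and 1478 and 2041 and 1763 under those scalings, while 28 and 20 members were called higher and 0 lower. Quantile normalization called 1840 genes and 17 members higher. Of the 25 members, 17 kept their call under cyclic loess and 14 under quantile normalization. Within P1 to P16 alone 8 of the 25 were called higher and 0 members lower, beside 8.45% and 5.99% of all genes. The rises were moderate in size. The largest was 1.59 for Sdha, and all but Sdha, Ndufb3, Cox4i1, Ndufa6, Cox6b1 and Atp5g3 were below 1. Leaving out each array in turn, 15 of the 25 kept their call every time, and the count of members called higher ranged from 18 (without P18) to 25.

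The complexes are given by counts and medians, and no test was made between them. Complex III had 4 of 6 members called higher, with a median change of 0.52. Complex V had 4 of 8, with a median of 0.44. Complex I had 12 of 25 and a median of 0.36, and complex II had 2 of 4 and a median of 0.31. Complex IV had 3 of 10 members called higher and a median of 0.08. No complex had a member called lower. Of the 12 members whose mean lay below the Arc background level, 0 were called as deposited, whereas 25 of the 41 above it were. Of the dim members 5 belong to complex IV. Under cyclic loess, median centring or quantile normalization the dim members Ndufs4, Uqcr10 and Uqcrfs1 were called higher. The order of the complexes depended on the dim members. Among genes above the median level of all genes, the 5 remaining members of complex IV had a median of 0.86, against 0.56 in complex III, 0.44 in complex V, 0.41 in complex I and 0.31 in complex II.

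**Figure D1:**
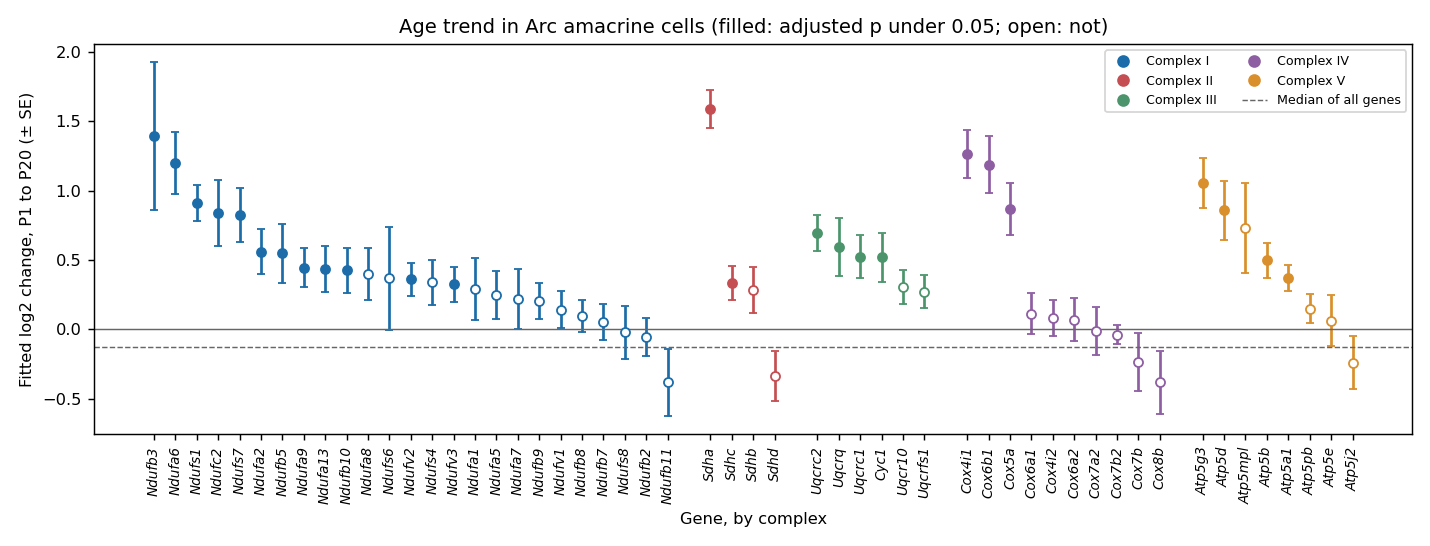
Fitted log2 change between P1 and P20 in Arc amacrine cells for each of the 53 subunits (vertical axis, points with standard error), grouped by complex, with filled points for adjusted p under 0.05. The 25 filled points all lie above 0 and above the dashed median of all genes, -0.13, while 7 of 10 points of complex IV are open.

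The windows around the start sites of members were searched for motifs of the factors best known for regulating such genes. RefSeq windows (GRCm38.p6, 250 bases before to 50 after the start of each gene) were found for 41 of the 53 members. Either strand was searched. An ETS match can run into a YY1 match, since the first ends and the second begins with AAG. A motif of nuclear respiratory factor NRF-1, searched as GCGCA, any base and GCGC, was present in windows of 9 members (22.0%), against 8.45% of 10883 genes. AAGATGGC, bound by YY1, was in 7 members (17.1%), against 4.07% of genes. AAGGTCA, bound by the estrogen-related receptors (ERR), was in 4 members (9.76%), against 4.14%. CCGGAAG, bound by ETS factors such as GABP, was in 7 members (17.1%), against 14.2%. Members called higher in Arc cells and members not called were set side by side. Of the 17 called higher that had a window, 4 held the NRF-1 motif, 1 the ETS, 2 the YY1 and 1 the ERR motif, and of the 24 not called 5 held the NRF-1, 6 the ETS, 5 the YY1 and 3 the ERR motif. The windows of Sdha, the member with the largest rise, of Atp5g3, of Cox6b1 and Cox5a, which changed differently in the 2 cell types, and of the flat subunit Cox6a1 are shown 5′ to 3′ in the direction of the gene, with motif matches in capitals.
Sdha, chr13:74350191-74350490, minus strand: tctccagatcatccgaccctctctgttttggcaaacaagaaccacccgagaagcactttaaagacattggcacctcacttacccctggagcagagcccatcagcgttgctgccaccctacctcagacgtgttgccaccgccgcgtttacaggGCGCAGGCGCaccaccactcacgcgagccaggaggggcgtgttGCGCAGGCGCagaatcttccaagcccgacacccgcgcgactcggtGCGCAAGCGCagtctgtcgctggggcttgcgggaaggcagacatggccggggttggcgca
Atp5g3, chr2:73911277-73911576, minus strand: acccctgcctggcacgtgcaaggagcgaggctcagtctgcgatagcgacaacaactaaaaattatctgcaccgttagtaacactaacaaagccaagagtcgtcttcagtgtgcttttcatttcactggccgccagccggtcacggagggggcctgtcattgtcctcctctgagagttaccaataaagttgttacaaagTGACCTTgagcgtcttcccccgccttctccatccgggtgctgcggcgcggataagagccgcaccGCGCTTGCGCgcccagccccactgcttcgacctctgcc
Cox6b1, chr7:30626065-30626364, minus strand: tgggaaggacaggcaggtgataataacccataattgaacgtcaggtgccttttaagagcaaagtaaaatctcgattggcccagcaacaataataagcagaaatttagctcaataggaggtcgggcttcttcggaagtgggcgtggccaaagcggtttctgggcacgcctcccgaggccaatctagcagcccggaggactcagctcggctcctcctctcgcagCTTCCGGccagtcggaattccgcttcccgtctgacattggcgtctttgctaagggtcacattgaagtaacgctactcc
Cox5a, chr9:57520982-57521281, plus strand: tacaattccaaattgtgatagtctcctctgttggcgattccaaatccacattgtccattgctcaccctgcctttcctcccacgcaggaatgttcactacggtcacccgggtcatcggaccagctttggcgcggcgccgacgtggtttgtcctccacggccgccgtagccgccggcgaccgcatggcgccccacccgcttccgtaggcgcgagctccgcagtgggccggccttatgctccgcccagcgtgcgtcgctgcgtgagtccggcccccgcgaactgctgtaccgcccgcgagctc
Cox6a1, chr5:115348909-115349208, minus strand: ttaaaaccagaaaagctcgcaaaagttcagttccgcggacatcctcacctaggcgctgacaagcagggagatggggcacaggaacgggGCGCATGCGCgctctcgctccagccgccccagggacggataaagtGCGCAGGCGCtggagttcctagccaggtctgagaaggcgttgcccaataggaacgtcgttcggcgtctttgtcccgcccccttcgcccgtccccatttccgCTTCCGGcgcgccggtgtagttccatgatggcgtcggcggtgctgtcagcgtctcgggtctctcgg
Sdha and Cox6a1 both hold repeated NRF-1 matches. Sdha rose most and Cox6a1 did not pass the test, and the relation of motifs to the changes was not tested. The window of Cox5a holds none of the 4 motifs, and that of Cox6b1 holds an ETS match.

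Complex I, the NADH dehydrogenase, has a matrix arm that oxidises NADH (N module) and reduces ubiquinone (Q module), and a membrane arm that pumps protons. The members called higher were spread over all of these, with 4 of 7 in the N module, 3 of 6 in the Q module and 5 of 12 in the membrane arm. Leaving out single arrays ended the calls of Ndufv2 and Ndufv3 in the N module and of Ndufa9 in the Q module. It also ended those of Ndufa13, Ndufb3, Ndufb5 and Ndufb10 in the membrane arm, where Ndufc2 alone kept its call. Ndufs1, the largest iron-sulphur subunit of the N module, had levels of 6.44, 6.59 and 6.93 (lowest, median and highest of 7 arrays) at P14 to P20, against 5.74, 6.14 and 6.52 at P1 to P6. Its fitted change was 0.91 ± 0.13 (SE, adjusted p = 4.87e-06). The ranges of the late and early days overlap only through its early maximum, the P6 array of 6.52. Ndufa6, an accessory subunit of the Q module, had levels of 5.06, 5.73 and 5.98 at P14 to P20, against 4.45, 4.86 and 5.02 at P1 to P6, without overlap. Its change was 1.20 ± 0.22 (adjusted p = 0.000164). Across complexes, P14 to P20 lay above P1 to P6 without overlap for 4 of 53 members, Ndufa6, Sdha, Uqcrc2 and Atp5g3. For 0 members it lay below. Over all genes 5.67% were above and 3.14% below in this way. Among the other called members of the matrix arm were Ndufs7, an iron-sulphur subunit next to the quinone site, at 0.82 ± 0.20, and Ndufv2, an iron-sulphur subunit of the N module, at 0.36 ± 0.12. The Ndufv2 call was lost in 11 of 33 alternatives, among them cyclic loess, quantile normalization and leaving out P1, P2, P18 or P19.

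In the membrane arm the accessory subunit Ndufb3 had the largest fitted change of complex I, 1.39 ± 0.53 (adjusted p = 0.0429), but its arrays scattered widely. It ranged from 3.53 to 5.37 at P14 to P20, against 2.75 to 5.35 at P1 to P6, so the ranges overlap. The early maximum was the P4 array, and the next highest early array, P1, was at 4.30. The call of Ndufb3 was lost on leaving out any 1 of 11 arrays and under cyclic loess or quantile normalization. Ndufc2, another accessory subunit of that arm, rose by 0.84 ± 0.24 (adjusted p = 0.0079). The flavin-binding subunit Ndufv1 (0.14, adjusted p = 0.39) and the iron-sulphur subunit Ndufs8 (-0.02, adjusted p = 0.938), both at the catalytic core, did not pass the test. Core and accessory subunits were both found among the called members. Ndufb11 had the lowest fitted change of complex I, -0.38 (adjusted p = 0.211), at levels below background.

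Complex II, succinate dehydrogenase, is also an enzyme of the TCA cycle. Its 4 subunits did not move as a unit. Sdha, the flavoprotein that oxidises succinate, had levels of 6.47, 6.60 and 7.07 at P14 to P20, against 5.23, 5.46 and 5.90 at P1 to P6, with no overlap. The fitted change was 1.59 ± 0.14, a 3.0-fold rise (adjusted p = 2.07e-09). Sdhc, a membrane anchor, rose by 0.34 ± 0.12 (adjusted p = 0.0332), with levels of 4.48 to 5.01 at P14 to P20, against 4.39 to 4.80 at P1 to P6. The ranges overlap, and its call was lost on leaving out P2, P16, P18 or P20 and under cyclic loess or quantile normalization. Sdhb, the iron-sulphur subunit that carries electrons from Sdha to the anchors, changed by 0.28 ± 0.16 (adjusted p = 0.174). Sdhd, the other anchor, changed by -0.33 ± 0.18 (adjusted p = 0.142), with levels of 3.73 to 4.31 at P14 to P20, against 3.92 to 4.76 at P1 to P6. Neither passed the test, and the late and early ranges overlap for both genes.

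Complex III, the cytochrome bc1 complex, had a positive fitted change for all 6 members. Uqcrc2, a core protein on the matrix side, had levels of 7.22, 7.49 and 7.58 at P14 to P20, against 6.65, 6.99 and 7.16 at P1 to P6, without overlap, and rose by 0.70 ± 0.13 (adjusted p = 0.000192). Uqcrc1, the other core protein, rose by 0.53 ± 0.15 (adjusted p = 0.00945). Cyc1, the cytochrome c1 subunit that hands electrons to cytochrome c, rose by 0.52 ± 0.18 (adjusted p = 0.0247), and the small subunit Uqcrq rose by 0.59 ± 0.21 (adjusted p = 0.0301). The calls of Cyc1 and Uqcrq were lost on leaving out single arrays, P20 among them for both. Quantile normalization ended the calls of Uqcrc1, Cyc1 and Uqcrq, and cyclic loess those of Uqcrc1 and Cyc1. Uqcrfs1, the Rieske iron-sulphur protein, changed by 0.27 ± 0.12 (adjusted p = 0.0784) and the small subunit Uqcr10 by 0.31 ± 0.12 (adjusted p = 0.0557). These last members lay below the Arc background level, and both were called higher under cyclic loess, median centring and quantile normalization.

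Complex IV, cytochrome c oxidase, has subunits used in most tissues and isoforms restricted to some. Of the 6 widespread subunits 3 rose (median change 0.49), and of the 4 tissue-restricted ones 0 were called (median 0.02). Cox4i1, the widespread form of a regulatory subunit, had levels of 5.79, 6.52 and 6.84 at P14 to P20, against 5.0, 5.67 and 5.96 at P1 to P6. The ranges touch only through the P15 array, the lowest of the late days, and the change was 1.26 ± 0.17 (adjusted p = 2.62e-06). Its counterpart Cox4i2, known from lung, lay between 2.61 and 3.06 at P14 to P20, against 2.52 and 3.15 at P1 to P6, below background throughout.

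Cox6b1, on the intermembrane side, had levels of 5.03, 5.64 and 5.91 at P14 to P20, against 4.34, 4.60 and 5.35 at P1 to P6, and rose by 1.19 ± 0.20 (adjusted p = 6.16e-05). Cox5a, which contacts Cox4, had levels of 6.37, 6.53 and 7.01 at P14 to P20, against 5.47, 5.98 and 6.41 at P1 to P6, and rose by 0.86 ± 0.19 (adjusted p = 0.000827). For both genes the late median lies above the highest early array. The remaining widespread subunits were Cox6a1, Cox7a2 and Cox7b. Cox6a1, measured well above background, changed by 0.11 ± 0.15 (adjusted p = 0.542), with 6.15, 6.43 and 6.82 at P14 to P20, against 6.08, 6.34 and 6.66 at P1 to P6. Cox7a2 and Cox7b were dim, and so were the testis form Cox7b2 and the muscle form Cox8b. The heart and muscle form Cox6a2 was measured above background in both cell types, and changed by 0.07 ± 0.16 in Arc cells (adjusted p = 0.728).

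Complex V, the ATP synthase, joins a catalytic F1 head to a proton-driven Fo ring. In F1, 3 of 4 members rose. Atp5d, the delta subunit of the central stalk, rose by 0.86 ± 0.22 (adjusted p = 0.00324), Atp5b, the catalytic beta subunit, by 0.50 ± 0.13 (adjusted p = 0.00355), and Atp5a1, the alpha subunit, by 0.37 ± 0.09 (adjusted p = 0.00309). Quantile normalization ended the calls of Atp5a1 and Atp5b, and cyclic loess that of Atp5a1. The epsilon subunit Atp5e changed by 0.06 (adjusted p = 0.799). Of the 4 members in Fo and the stalk, Atp5g3 alone was called. Atp5g3, which encodes subunit c of the rotating ring, had levels of 6.59, 6.72 and 6.96 at P14 to P20, against 5.48, 6.01 and 6.54 at P1 to P6, without overlap, and rose by 1.06 ± 0.18 (adjusted p = 5.21e-05). The ring subunit had the largest fitted change of the 8 members. Atp5mpl, a small proteolipid of the complex, changed by 0.73 ± 0.32 (adjusted p = 0.0774), and Atp5j2, the f subunit, by -0.24 (adjusted p = 0.321).

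The days were then divided into windows. Between windows of 7 arrays, 0 members were called higher and 0 lower at P7 to P13 against P1 to P6, where 0.345% of all genes were called higher and 0.147% lower, and the median member change was 0.17. At P14 to P20 against P7 to P13, Sdha alone was called higher, by 0.61 ± 0.13 (adjusted p = 0.00738), and 0 members lower, with 4.71% and 2% of all genes, and the member median was 0.10. These counts depended on the window edges. With windows of P1 to P7, P8 to P14 and P15 to P20, 3 members were called higher at the earlier step and 0 at the later one, where Sdha had an adjusted p of 0.0543. In the plot of complex means by day, the values change level between P9 and P10. That division was chosen after the values were seen and is given without a test.

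The mean over complex III members was 5.25 to 5.49 on the 11 arrays of P10 to P20, against 4.76 to 5.18 on the 10 arrays of P1 to P9, with no overlap. Complex I averaged 4.41 to 4.79 on the later arrays, against 4.13 to 4.53 on the earlier ones. Complex II averaged 4.69 to 5.07, against 4.43 to 4.79, and complex V 5.89 to 6.20, against 5.54 to 5.91. In complexes I, II and V the later and earlier ranges overlap only through the P15 array. Without it the later arrays began at 4.56 in complex I, 4.86 in complex II and 5.93 in complex V. P15 held the lowest later value for 16 of the 53 members. Complex IV averaged 3.83 to 4.31 on the later arrays, against 3.69 to 4.01, and overlapped with or without P15.

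By member, 46 of 53 had a higher mean at P10 to P20 than at P1 to P9, with a median difference of 0.26 beside -0.06 over all genes. Ndufa6 and Sdha were above without overlap (1.82% of all genes were above and 0.742% below). From P9 to P10 alone, 45 of 53 members were higher on the P10 array than on the P9 array, by a median of 0.33, beside 0.02 over all genes. A line fitted within P1 to P9 called 0 members higher and 0 lower (0.022% and 0.0147% of all genes), with a median change over those days of -0.03. Within P10 to P20 it called 2 members higher, Sdha by 0.64 ± 0.15 (adjusted p = 0.0199) and Ndufs1 by 0.50 ± 0.14 (adjusted p = 0.0489), and 0 lower (3.84% and 2.25% of all genes), with a median of -0.001. Members other than Sdha and Ndufs1 did not pass the test on either side of the division, in fits of 10 and 11 arrays. Since the division was placed where the values change level, these fits cannot decide between a step and a gradual rise. The share of true changes that fits of this size recover was not estimated.

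Other genes also differed between these days. In glycolysis 6 of 12 genes were higher at P10 to P20 than at P1 to P9 without overlap, Pfkm, Aldoa, Aldoc, Tpi1, Eno2 and Slc2a3. Clu of glia, Thy1 of ganglion cells and Gad1 of amacrine cells were too, each alone in its marker list. By mean, 4 glial markers were higher at P10 to P20 and 6 lower. Of ganglion cell markers 2 were higher and 7 lower, and of amacrine markers 5 were higher and 5 lower. For 1 amacrine marker the later arrays lay below the earlier ones without overlap. Gnat1, the rod transducin alpha subunit, lay between 4.36 and 7.30 at P10 to P20, against 2.66 and 3.64 at P1 to P9, and 4 of 14 rod markers were higher without overlap. Of 10 markers of Müller glia, Glul, Dkk3 and Clu were called higher and 2 lower in the Arc age trend, and 0 were called in starburst cells. The part of other cells in the member changes was not tested.

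**Figure D2:**
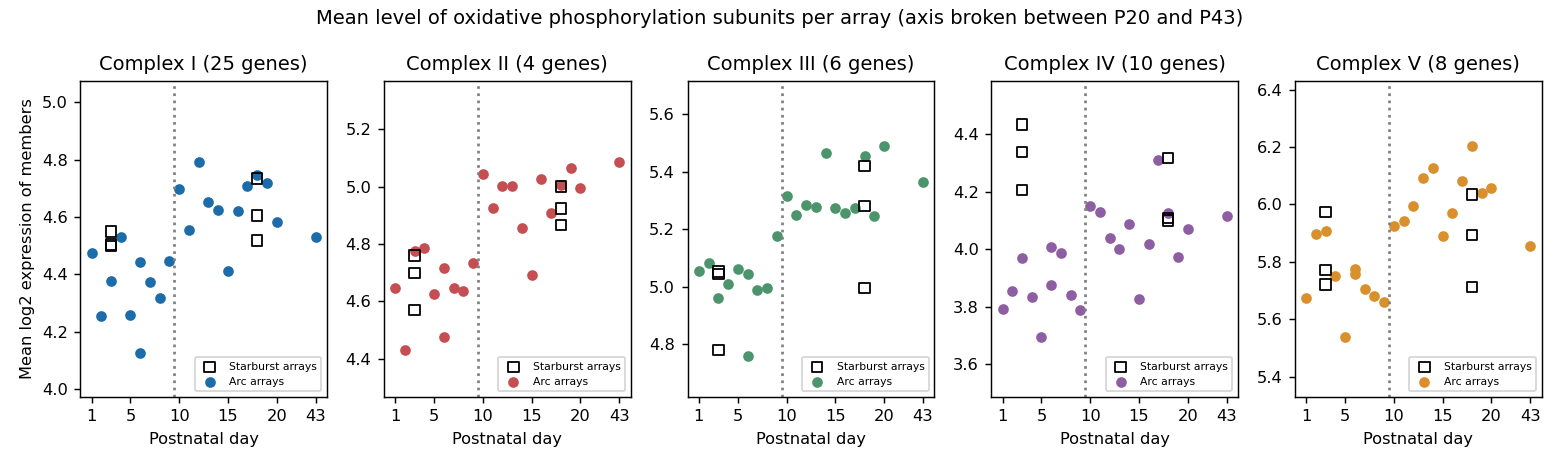
Mean log2 expression over the members of each complex (vertical axes, each spanning the same range) against postnatal day for 6 starburst arrays (open squares) and 22 Arc arrays (filled circles), with a dotted line between P9 and P10. Complex III means lie at 5.25 to 5.49 from P10 to P20 and at 4.76 to 5.18 before, while complex IV starts higher in starburst cells, 4.21 to 4.43 at P3, than in Arc cells of P2 to P4, 3.83 to 3.97. Of complex IV, Cox4i2, Cox7a2, Cox7b, Cox7b2 and Cox8b lay below background in both cell types.

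At P43 the single Arc array, which has no replicate, lay within the range of P17 to P20 for 28 of 53 members, above it for 7 and below it for 18. Over all genes 28.2% lay above and 21.1% below. In complex V, 5 of 8 members were below the P17 to P20 range, among them Atp5a1, Atp5b and Atp5g3, and the complex mean was 5.85, against 6.04 to 6.20 at P17 to P20. The complex II mean was 5.09 at P43, against 4.91 to 5.07 at P17 to P20. Cox4i1 at 6.34 and Cox6b1 at 5.22 lay below their P17 to P20 ranges, and all 4 complex II members lay within theirs.

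In starburst cells 1 member was higher at P18 than at P3 and 1 was lower. These are 1.89% of members in each direction, beside 4.76% of all genes called higher and 3.89% lower, so the count is no result about the members as a group. Sdha had levels of 6.57, 6.74 and 6.82 at P18, against 5.69, 5.74 and 5.54 at P3. All P18 arrays lay above all P3 arrays, and the difference was 1.05 ± 0.15 (adjusted p = 0.00209), called under all 14 alternatives run. Sdha was thus called higher with age in both cell types. Ndufa1, a small subunit of the complex I membrane arm, had levels of 3.84, 5.02 and 4.39 at P18, against 5.63, 5.33 and 5.84 at P3. It was lower at P18 on every array, by -1.18 ± 0.28 (adjusted p = 0.0327), but the call was lost without P3 replicate 1, P3 replicate 3, P18 replicate 1 or P18 replicate 3. In the Arc trend the same gene changed by 0.29 (adjusted p = 0.303).

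The median starburst change was 0.07 over the members and -0.06 over all genes. It was 0.32 in complex III, 0.11 in complex V, 0.10 in complex I, 0.05 in complex II and -0.08 in complex IV. All P18 arrays lay above all P3 arrays for 8 members, Sdha, Uqcrc1, Uqcrc2, Atp5a1, Atp5b, Ndufs7, Ndufv1 and Ndufv2 (11.3% of all genes), and below for 4, Ndufa1, Ndufb7, Cox6b1 and Atp5e (15.7% of all genes). Apart from Sdha and Ndufa1 none of these passed the test. Atp5b, for instance, had levels of 8.56, 8.40 and 8.56 at P18, against 8.13, 8.10 and 7.67 at P3 (0.54 ± 0.16, adjusted p = 0.0772). Ndufs7 had 6.48, 6.90 and 7.06 at P18, against 5.39, 6.20 and 6.25 at P3 (0.87 ± 0.26, adjusted p = 0.0759). The starburst fit holds 6 arrays and the Arc trend 21, so their counts of calls are not directly comparable. In simulated data the starburst fit recovered 54% of changes of 1 and 4% of changes of 0.5. The Arc trend recovered 98% and 56%, for changes simulated as linear in the day. Each simulation changed 100 genes per size, fewer than were called in either real fit, so recovery in the real data can differ. In a fit over 12 arrays, which has 3 per group, starburst P18 against P3 called 4 members higher and 1 lower (6.07% and 5.92% of all genes), and Arc P17 to P19 against P2 to P4 called 7 higher and 0 lower (7.73% and 5.27% of all genes).

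The difference between the changes was tested directly in the fit over 12 arrays. In simulated data this test recovered 36% of changes of 1 and 1% of changes of 0.5. The change in starburst cells (P18 minus P3) was set against that in Arc cells (P17 to P19 minus P2 to P4). Of the members 0 had a higher change in starburst cells and 4 a lower one, which is 7.55% of members beside 2.36% of all genes called lower and 1.67% called higher. They were the complex IV subunits Cox4i1, Cox5a and Cox6b1 and the complex I subunit Ndufs4. All 3 complex IV members are the widespread subunits that rose in Arc cells. The Arc arrays used here also entered the Arc trend, so these calls are not independent of that rise. The difference was below 0 for 9 of 10 complex IV members and for 38 of all 53, beside 6572 of 13617 genes. Several of the complex IV values were small, with Cox6a2 at -0.0006, Cox7b at -0.04 and Cox7b2 at -0.05. Cox7b and Cox7b2 lay below background in both cell types, as did Cox4i2, Cox7a2 and Cox8b. The count of 4 became 2 without starburst P3 replicate 1, starburst P18 replicate 3, Arc P17, Arc P18 or Arc P19. In the same test 1 of 14 rod markers was called lower and 0 higher, Gnat1 at -0.97 ± 0.22 (adjusted p = 0.0241). Of 10 markers of Müller glia, Glul, Dkk3 and Clu were called lower and 0 higher. The medians of these lists were -0.16 and 0.06. The part of other cells in the member differences was not tested.

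Cox4i1 was already high at P3 in starburst cells. It had levels of 6.74, 6.92 and 6.69 in starburst cells at P18, against 6.60, 6.73 and 6.78 at P3, while Arc cells had 6.84, 6.52 and 6.56 at P17 to P19, against 5.64, 5.69 and 5.67 at P2 to P4. The starburst change minus the Arc change was -0.89 ± 0.18 (adjusted p = 0.0121), and this call held under all 18 alternatives. At P3 Cox4i1 was higher in starburst than in Arc cells by 1.04 ± 0.13 (adjusted p = 0.000129), and at P18 the difference was 0.15 ± 0.13 (adjusted p = 0.436).

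Cox6b1 had levels of 5.89, 5.59 and 5.42 in starburst cells at P18, against 5.92, 6.52 and 6.15 at P3, while Arc cells had 5.91, 5.51 and 5.81 at P17 to P19, against 4.34, 5.02 and 5.20 at P2 to P4. The change was -0.56 in starburst cells (adjusted p = 0.138 in the fit of 6 arrays) and 0.89 in Arc cells (adjusted p = 0.0194 in the fit of 12), and the difference between these was -1.45 ± 0.32 (adjusted p = 0.0205). The call was lost without starburst P3 replicate 2, starburst P18 replicate 3, Arc P17 or Arc P19. Cox5a had levels of 5.98, 6.46 and 5.92 in starburst cells at P18, against 6.64, 6.39 and 6.79 at P3, while Arc cells had 7.01, 6.72 and 6.52 at P17 to P19, against 6.05, 6.41 and 5.98 at P2 to P4. Its difference was -1.09 ± 0.27 (adjusted p = 0.0366), lost under 11 of 18 alternatives, among them cyclic loess, quantile scaling and leaving out any of 8 single arrays. Ndufs4, an N module subunit, lay below background in both cell types, with a difference of -0.76 ± 0.17 (adjusted p = 0.0241) that was lost on leaving out any of 5 single arrays.

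**Figure D3:**
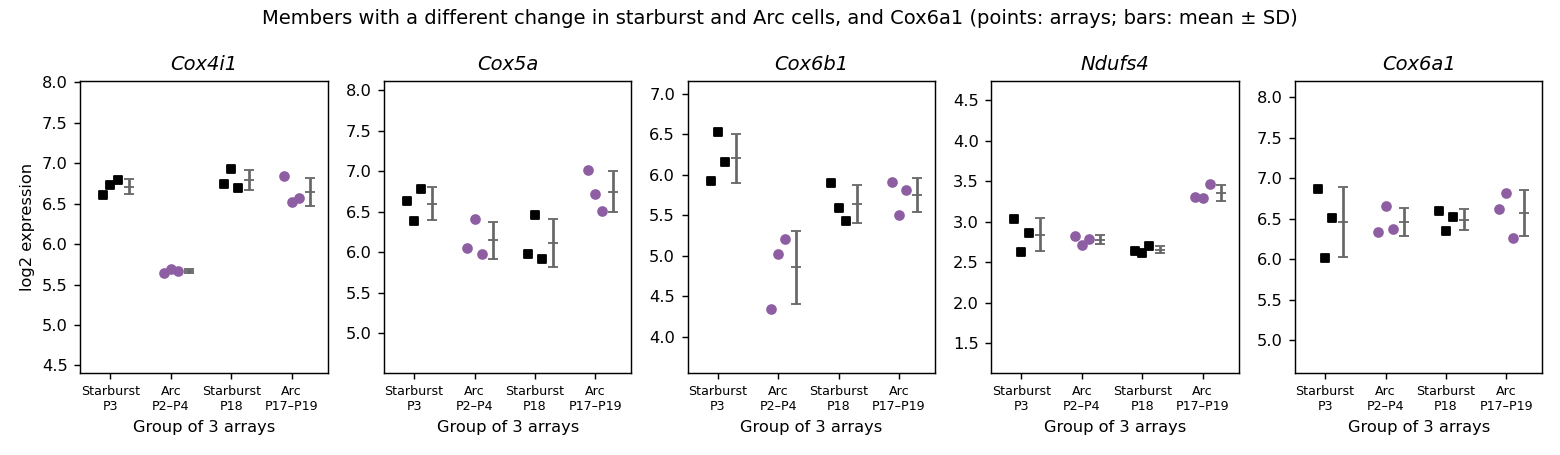
Log2 expression (vertical axes) of Cox4i1, Cox5a, Cox6b1, Ndufs4 and Cox6a1 on 3 starburst arrays (squares) and 3 Arc arrays (circles) at the earlier and the later age, with mean ± SD beside the points. Cox4i1 lies between 6.60 and 6.92 on all starburst arrays and between 5.64 and 5.69 in Arc cells of P2 to P4, while Cox6a1 overlaps in all 4 groups.

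Between the cell types at P3, 4 members were higher in starburst than in Arc cells and 3 lower (5.13% and 5.66% of all genes), so the members' shares of 7.55% and 5.66% lay near the background. Beside Cox4i1 the higher members were Cox6b1 (1.35 ± 0.23, adjusted p = 0.00177), Ndufa1 (1.86 ± 0.30, adjusted p = 0.00125) and Ndufb7, a membrane arm subunit (0.71 ± 0.15, adjusted p = 0.0091). Ndufa1 had 5.63, 5.33 and 5.84 in starburst cells at P3, against 3.49, 3.62 and 4.13 in Arc cells of P2 to P4, and the cell types did not overlap. These 4 calls held under all 19 alternatives each. The median difference was 0.41 in complex IV, beside 0.07 over all genes. On the starburst side were 9 of its 10 members and 8210 of 13617 genes. Of these 10, Cox4i2, Cox7a2, Cox7b, Cox7b2 and Cox8b lay below background in both cell types. The median was 0.43 in the widespread and 0.40 in the tissue-restricted subunits, of which Cox6a2 alone lay above background. The background level was itself higher in starburst cells, 3.92, than in Arc cells, 3.47. The lower members were Uqcrc2 (-0.76 ± 0.16, adjusted p = 0.00831), Ndufv2 (-0.64 ± 0.17, adjusted p = 0.0288) and Atp5a1 (-0.51 ± 0.12, adjusted p = 0.0183), and all 3 lost their call under cyclic loess. The count of lower members was 1 without starburst P3 replicate 3, Arc P3 or Arc P4.

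At P18, 0 members were higher in starburst cells and 7 lower (9.69% and 11% of all genes), a share of 13.2%, near the background. Ndufs1 had levels of 5.80, 5.67 and 6.03 in starburst cells at P18, against 6.53, 6.79 and 6.86 on the Arc arrays of P17 to P19, a difference of -0.89 ± 0.23 (adjusted p = 0.0141). Uqcrc2 had 6.77, 6.73 and 6.70 in starburst cells, against 7.42, 7.49 and 7.49 in Arc cells, a difference of -0.73 ± 0.16 (adjusted p = 0.00665). For both genes the cell types did not overlap. Ndufa6 (-0.87 ± 0.23, adjusted p = 0.0179) and Ndufs4 (-0.70 ± 0.12, adjusted p = 0.00138) were lower too, as were Ndufb5, Cox5a and Sdhb. This comparison depends on the scaling between arrays. The member median was -0.09 as deposited and 0.08 under cyclic loess, where 3 members were higher and 3 lower. The all-gene median was 0.10 as deposited, 0.01 under cyclic loess and -0.08 with arrays centred on their medians. Sdhb and Ndufs4 kept their call under all 3 other scalings. The starburst means of both genes lay below the starburst background level, and Sdhb lost its call without Arc P19. The count of lower members was 4 without starburst P18 replicate 1 or Arc P19, and 3 without Arc P18.

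**Figure D4:**
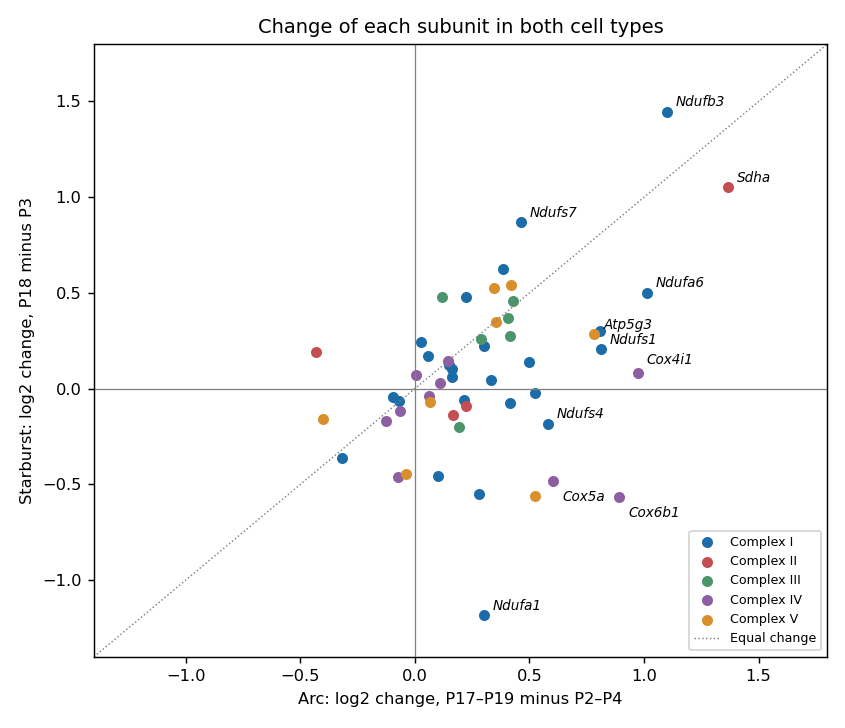
Log2 change of each of 53 subunits in starburst cells (P18 minus P3, vertical axis) against that in Arc cells (P17 to P19 minus P2 to P4, horizontal axis), coloured by complex, with a dotted line of equal change. Of the points 38 lie below the line, with Cox4i1, Cox5a and Cox6b1 to its lower right and Sdha high on both axes. Over all genes the starburst change was below the Arc change for 6572 of 13617.

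Genes that feed or build the complexes were described by counts of calls and medians, beside 14.7% of all genes called higher and 23% lower in the Arc trend. In Arc cells, glycolysis and glucose uptake had 11 of 12 genes called higher and 0 lower, with a median of 1.52. Aldoc, an aldolase of brain and retina, rose by 6.48 ± 0.33 (adjusted p = 4.47e-13) and the neuronal enolase Eno2 by 3.28 ± 0.27 (adjusted p = 9.61e-10). The median of this list was above that of the subunits, 0.34. TCA cycle and pyruvate entry genes had 10 of 16 called higher and 1 lower (median 0.42). Idh3a, the catalytic subunit of the NAD-dependent isocitrate dehydrogenase, rose by 1.61, and Pdha1, of pyruvate dehydrogenase, by 1.47. Idh2, the NADP-dependent mitochondrial enzyme for the same substrate, fell by 1.38 in Arc cells.

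Of assembly factors, which build the complexes but are not part of them, 12 of 31 were called higher and 2 lower (median 0.10), with Ttc19, a complex III factor, at 1.06 and Lrpprc, which stabilises mitochondrial messenger RNAs, at 1.00. Cox11 and Cox15, which serve metal and heme insertion into complex IV, were the lower ones, at -0.37 each. ATP and phosphate exchange had 6 of 9 higher and 0 lower (median 0.63), led by the outer membrane channel Vdac1 at 2.07 and creatine kinase Ckb at 1.00. Mitochondrial import had 3 of 11 higher, led by Timm8b at 0.99 and Timm17a at 0.97. The mitochondrial ribosome had 4 of 63 higher, led by Mrpl40 at 0.65 and Mrps26 at 0.59, which is 6.35% of the list and below the all-gene share.

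Among regulators and genome upkeep genes 4 of 16 rose and 4 fell in Arc cells. These are 25% in each direction, near the all-gene share for lower calls. Esrrg, a receptor that binds the ERR motif searched above, rose by 1.52 ± 0.26, and the coactivator Ppargc1a rose by 1.03 ± 0.20. Nrf1, the gene of NRF-1, fell by 0.67, and Gabpa, of the ETS factor GABP, fell by 0.36.

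In starburst cells the lists stood beside 4.76% of all genes called higher and 3.89% lower. Glycolysis had 8 of 12 genes called higher and 0 lower (median 1.31), with Aldoc at 3.14 ± 0.19 and Eno2 at 2.57 ± 0.19. TCA cycle genes had 3 of 16 higher, Ogdh, Idh3a and Pdha1, and 1 lower, Idh2 at -1.07. Ppargc1a at 1.16 ± 0.17 and Ppargc1b at 0.84 ± 0.18 were higher, Vdac1 and the phosphate carrier Slc25a3 were higher, and of the assembly factors Coa3 at 0.94 was. The import receptor subunit Tomm7 was lower, at -1.63 ± 0.38, and 0 of 63 mitochondrial ribosome genes were called. Esrrg was lower in starburst than in Arc cells by -2.71 at P3 and -3.00 at P18. The starburst and Arc lists were fitted on different numbers of arrays, and the difference in list counts was not tested.

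**Figure D5:**
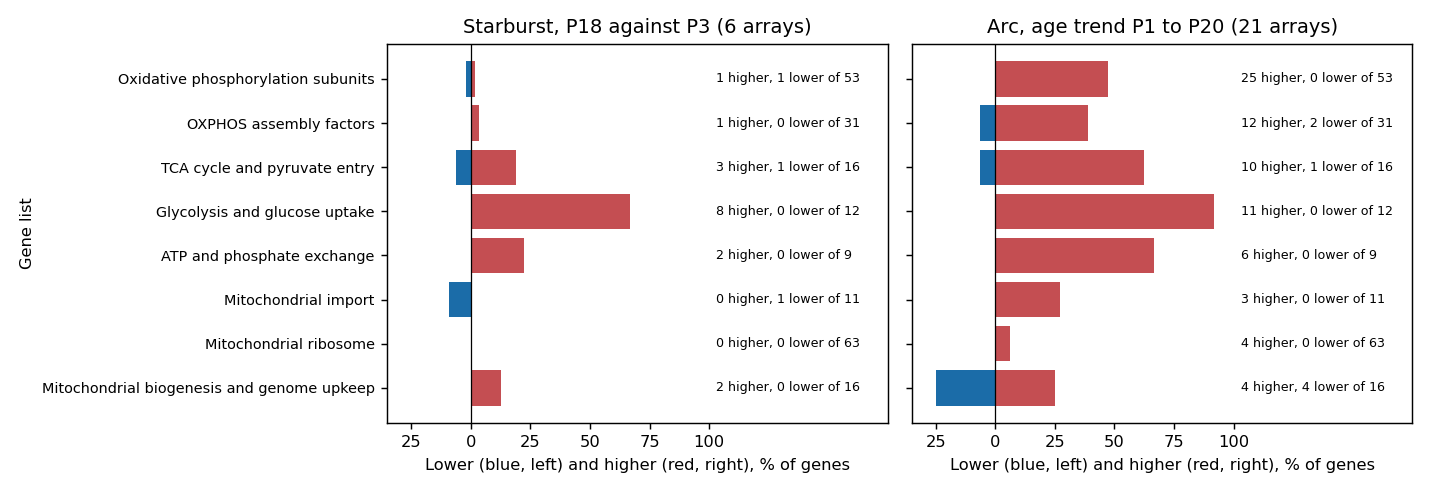
Share of genes called higher (right, red) or lower (left, blue) in percent of each list, for starburst P18 against P3 (left panel) and the Arc age trend (right panel), with counts beside the bars. The subunits have 1 of 53 called higher in starburst and 25 of 53 in Arc cells, while glycolysis has 8 of 12 and 11 of 12. The fits hold 6 and 21 arrays.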

How the data were processed

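RNA from sorted amacrine cells was hybridised to 28 arrays. The authors deposited log2 expression per transcript cluster, made with R 2.11.1 and RMA against genome build mm8, per the submitters' processing notes. The log base is inferred from RMA's convention and a highest value of 11.2, and which arrays were normalized together is not given in the sources used here. Of 15170 clusters, 13720 carried 1 symbol in the platform annotation (869 several, 581 none). For 102 genes with several clusters the one with the highest mean was kept, leaving 13617 genes. No dim gene was removed, and the number of arrays limits precision. Tests used limma 3.58.1 in R 4.3.3 (lmFit, eBayes with trend, two-sided), with Benjamini-Hochberg adjustment over all genes at 0.05. They were checked on simulated data. A change of 1, set in 100 genes, was recovered in 98% of them for the Arc trend. It was recovered in 54% for starburst P18 against P3 and in 36% for the difference of changes. For a change of 0.5 these shares were 56%, 4% and 1%. The real fits called more genes than were changed here, so the shares there can differ. Members and lists were chosen with earlier results of these data known. Per comparison, up to 4 highest and 4 lowest called members were named, with each complex's largest called change, isoform families and complex II. Further members, and the division at P10, were named after their values were seen. Correlations of deviations between same-numbered starburst arrays were 0.046, 0.018 and -0.044. Alternatives covered scaling, dim genes, array weights, day ranges and left-out arrays.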

Additional observations from a re-analysis of the deposited data

Results flagged for a closer look

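Some members had 1 array far from the others of its window, by Dixon's criterion at 95%, which chance alone meets in about 1 in 20 of the 75 sets of 7 arrays examined. The mean of complex III was 4.76 on 1 P6 array (replicate 1), the lowest of P1 to P6, where the others lay between 4.96 and 5.08. Cox4i1 was lowest at P1, at 5.0, where the other early arrays lay between 5.57 and 5.96, and lowest at P15, at 5.79, where the other late arrays lay between 6.44 and 6.84. Sdhc was also lowest at P15, at 4.48, beside 4.82 to 5.01 on the other late arrays. Sdhb was lowest at P8, at 3.76, beside 4.26 to 4.62 on the other arrays of P7 to P13. Sdhd was highest at P3, at 4.76, beside 3.92 to 4.23 on the other early arrays, and highest at P20, at 4.31, beside 3.73 to 3.98 on the other late arrays.

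The developmental change was called different between starburst and Arc cells, by the test of the difference itself, for Cox6b1 (-1.45), Cox5a (-1.09), Cox4i1 (-0.89) and Ndufs4 (-0.76), each the starburst change minus the Arc change on the log2 scale. The call of Cox4i1 held under all 18 alternatives. That of Cox6b1 was lost in 4 of 18, of Cox5a in 11 of 18 and of Ndufs4 in 5 of 17. Ndufs4 lay below background in both cell types.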

How the results depend on the processing

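Members called higher in the Arc trend numbered 8 over P1 to P16, 0 within P1 to P9, 2 within P10 to P20 and 7 for P17 to P19 against P2 to P4, the last 3 chosen after seeing the data. The member median was -0.0336 within P1 to P9 and -0.001 within P10 to P20. Within P1 to P9 the fitted changes of Atp5a1 (-0.0542), Atp5d (-0.37), Ndufa13 (-0.35), Ndufa6 (-0.0839), Ndufb10 (-0.0369), Ndufb5 (-0.27), Ndufv3 (-0.0336), Uqcrc1 (-0.0199) and Uqcrq (-0.27) were below 0, and within P10 to P20 those of Atp5b (-0.0656), Cyc1 (-0.001), Ndufb10 (-0.013), Ndufb5 (-0.10), Ndufv2 (-0.001) and Ndufv3 (-0.12). These fits hold fewer arrays. With only genes above the median level, 1 member was higher in the middle against the early days and 4 in starburst P18 against P3. With windows ending at P7, P14 and P20 the counts higher were 3 and 0. In starburst P18 against P3, cyclic loess gave 3 higher, the fit over 12 arrays 4 and the replicate block 2. The block is given only here, since the numbers do not pair the samples. At P3 of the cell types, 7 were higher under cyclic loess or with Arc P1 to P5, and 0 lower under cyclic loess. At P18, 3 were higher under cyclic loess, 2 under quantile scaling, 1 with the dim filter or array weights and 3 with Arc P16 to P20, and 3, 12 and 2 were lower under cyclic loess, median centring and quantile scaling, with medians of 0.0772, -0.28 and 0.0572. Lower calls over all genes were 1187, 2206 and 1162 there and 1500 as deposited, so the members' counts move with those of all genes. The causes were not tested. Leaving out 1 array, the count higher ranged from 18 to 25 in the trend, 0 to 1 and 1 to 2 between windows (lower 0 to 1 in the second), 4 to 6 at P3 and 0 to 1 at P18, and the count lower 0 to 1 in starburst, 1 to 4 at P3, 3 to 9 at P18 and 2 to 4 for the difference of changes. The placement of Ndufa4 could not be varied, as it was not among the members. Signal near background limits 12 members in Arc and 16 in starburst cells.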
